A study of Mus musculus with 8 samples.

Results

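The Kruppel-like factors examined here are 7 genes of the mouse zinc finger transcription factor family, Klf2, Klf3, Klf4, Klf6, Klf7, Klf10 and Klf13. They were taken by gene name from a count table of 15566 genes, in which each of the 7 had 1 row. Kruppel-like factors bind CACCC and other GC-rich elements through C2H2 zinc fingers at their carboxyl end, a design they share with the SP proteins, and their amino ends recruit either coactivators or corepressors. In mice, Klf4 acts downstream of Irf8 in the differentiation of Ly6C-high monocytes, and Klf2 has been tied to Nr4a1 and the Ly6C-low monocytes that patrol vessels. Klf2, Klf4, Klf6 and Klf10 also belong to the genes that cells switch on quickly after stimulation.

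The RNA came from untreated male C57BL/6 mice, 8 weeks old, whose Ly6C-high monocytes were sorted out of the marrow of femur and tibia; polyadenylated transcripts were sequenced. Of the 8 libraries, 4 had the genotype LysMDCommd10, called deficient here, in which LysM-Cre deletes Commd10, whose product is a COMMD protein, one of a family that acts in endosomal sorting. LysM-Cre is driven by the lysozyme 2 locus and acts in myeloid cells in general, so neutrophils and macrophages of these mice carry the deletion too. The 4 control libraries came from weight-matched Commd10fl/fl littermates, which carry the floxed gene. The gate took living CD45+ CD11b+ CD115+ Ly6C-high cells and left out CD117+ and Ly6G+ cells. The labels do not say which mouse or how many mice stand behind a library, and the spread on which the p-values rest may therefore be technical. In sorted bulk RNA, fewer cells that express a gene and less of its RNA per cell cannot be told apart.

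Total counts were 17099454 to 30722262 in the deficient libraries and 14231121 to 31040255 in the controls, so that 1 count stood for 0.0324 to 0.0703 CPM, the count scaled to a common library size with TMM factors. Cre had 499 to 987 counts in the deficient libraries and 0 in every control, where a count of 0 allows at most 0.0966 to 0.211 CPM. Commd10 fell to 21.3 ± 2.17 CPM in deficient libraries, against 29.2 ± 1.46 CPM in controls (SD, n = 4 each; edgeR adjusted p = 0.0292). That is a level of 72.9% of control, so these counts do not show a complete loss of its RNA. Ptprc, Itgam, Csf1r and Ly6c2, whose proteins or protein family set the gate, and Ccr2, another marker of Ly6C-high monocytes, together summed to 6718 to 7198 CPM in deficient libraries and 6796 to 7253 CPM in controls. The groups did not overlap in 2 of these 5 genes, which differed in opposite directions, beside 12.6% of all tested genes. Ly6c2 was higher, at 1976 ± 112 CPM in deficient libraries and 1784 ± 27.9 CPM in controls (SD, n = 4 each; edgeR adjusted p = 0.0958). Ccr2 was lower, at 2317 ± 43.6 CPM in deficient libraries and 2450 ± 63.6 CPM in controls (edgeR adjusted p = 0.205). Ly6g and Kit, which mark the excluded cells, summed to 0.499 to 0.813 CPM in deficient libraries and 0.135 to 0.584 CPM in controls. Sample titles carry running numbers, 11 to 14 in the deficient samples and 2 to 6 in the controls, so an order of handling behind them cannot be told apart from genotype.

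Klf4 and Klf2 were the most abundant of the 7 once levels were set per length of exon, and Klf7 was the least. Klf4 stood at 132 ± 13.8 CPM per kb in deficient libraries and 154 ± 15.6 CPM per kb in controls, and Klf2 at 121 ± 19.4 CPM per kb in deficient libraries and 140.0 ± 25.8 CPM per kb in controls (SD, n = 4 each). Of the tested genes, 97.4% had a lower level per length than Klf4 in deficient monocytes and 97.8% in control monocytes. Klf6 followed at 65.1 ± 4.12 CPM per kb in deficient libraries and 71.6 ± 11.7 CPM per kb in controls, and Klf13 at 57.6 ± 1.95 CPM per kb in deficient libraries and 56.5 ± 3.33 CPM per kb in controls. Klf10 had 33.5 ± 4.12 CPM per kb in deficient libraries and 40.4 ± 7.12 CPM per kb in controls, and Klf3 had 22.6 ± 1.18 CPM per kb in deficient libraries and 21.7 ± 2.99 CPM per kb in controls. Klf7 had 1.502 ± 0.116 CPM per kb in deficient libraries and 1.58 ± 0.153 CPM per kb in controls, and 27.7% of tested genes lay below it in deficient libraries. This order of the 7 members held in each of the 8 libraries. Across libraries, the ranges of the level of Klf4 and Klf2 overlapped, as did those of Klf6 and Klf13, while every other pair of neighbours in the order was separated. Lengths are the union of all annotated exons, 1.85 kb for Klf2 and 11.2 kb for Klf3, so a gene with long rarely used exons is understated on this scale. The order depends on these lengths, which are the same in every library. Without them, Klf13 had 434 CPM in deficient libraries and 425 CPM in controls. Klf4 had 403 and 469 CPM, Klf6 286 and 315 CPM, and Klf2 223 and 259 CPM, in the same order of groups.

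**Figure D1:**
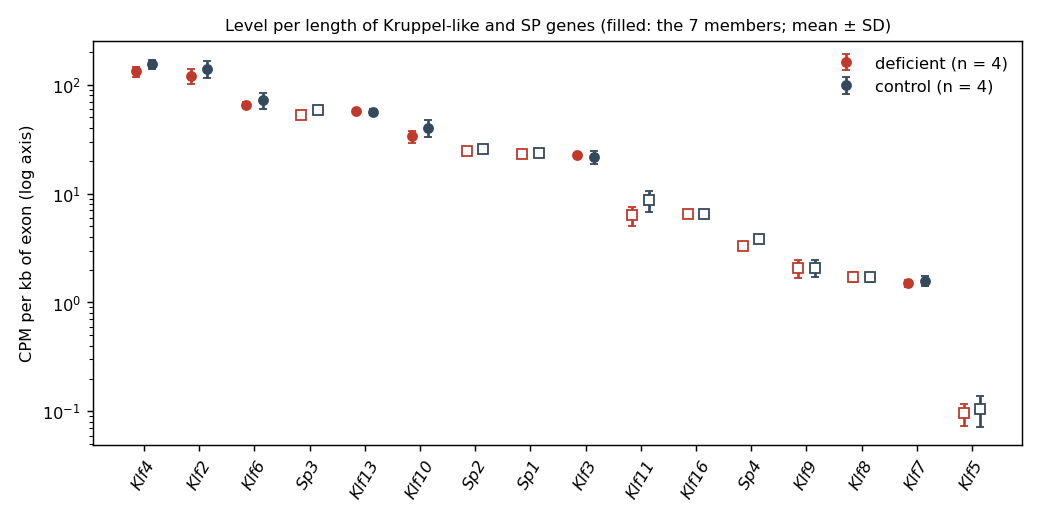
Level per length of the 7 members (filled circles) and 9 related genes (open squares), as CPM per kb of exon on a log axis; points are means and bars the SD over 4 deficient (red) or 4 control (dark) libraries. Klf4 and Klf2 stand above 100 CPM per kb in both groups, and Klf7 stands at 1.502 CPM per kb in deficient and 1.58 CPM per kb in control libraries.

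The comparison of genotypes asked whether these levels differed between deficient and control libraries. Only the deficient libraries carried Cre, so an effect of Cre or its insertion cannot be told apart from that of deleting Commd10. None of the 7 members changed past the threshold: 0 of 7 had an edgeR adjusted p under 0.05, where 0.873% of the 12938 genes tested did (0.356% higher and 0.518% lower in deficient libraries), and 0 of 7 did with DESeq2, where 6.52% of genes did. At an unadjusted p under 0.05 there was 1 member with edgeR (Klf4), beside 24.0% of all genes, and there were 2 with DESeq2 (Klf4 and Klf10), beside 21.6% of all genes. The 4 deficient values and the 4 control values overlapped in every member, whereas they were separate in 12.6% of all tested genes, 6.70% with the deficient values lower. The log2 fold changes of deficient over control ran from -0.27 (Klf10) to 0.057 (Klf3), with 5 members below 0 and 2 above. Their median was -0.14, beside a median of 0.00072 over all tested genes.

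**Figure D2:**
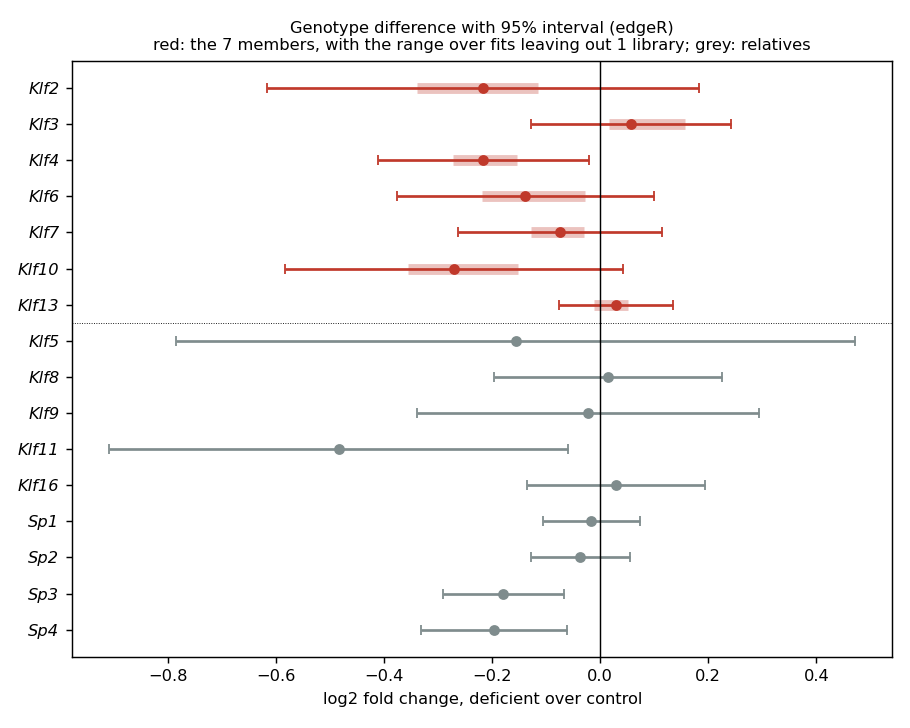
Log2 fold change of deficient over control libraries for the 7 members (red) and 9 related genes (grey), with 95% intervals from the edgeR fit of all genes; pale red bars give the range over the 8 fits that left out 1 library. The intervals of 6 members include 0, that of Klf4 ends at -0.021, and those of Klf11, Sp3 and Sp4 also lie below 0, although none of these 4 genes had an adjusted p under 0.05.

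Among the activators, Klf4 came nearest to the threshold. Klf4 (ENSMUSG00000003032, GRCm38 chromosome 4, 55527143 to 55532466, minus strand) had 418, 350.0, 395 and 450 CPM in deficient 1 to 4, against 421, 435, 514 and 505 CPM in control 1 to 4. Deficient 4 lay above control 1 and control 2, and deficient 2 was the lowest library of all 8. The mean was 403 ± 42.0 CPM in deficient libraries and 469 ± 47.6 CPM in controls (SD, n = 4 each), a level of 86.1% of control and a log2 fold change of -0.22 (SE 0.087, edgeR adjusted p = 0.171, or 0.103 with DESeq2). The 95% interval of the fold ran from 0.752 to 0.985. With 1 library left out, the log2 fold change stayed between -0.27 and -0.15, with edgeR adjusted p-values of 0.139 to 0.366.

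Klf2 (ENSMUSG00000055148, chromosome 8, 72319033 to 72321656, plus strand) is known for keeping lymphocytes and endothelial cells quiescent. It had 220, 174, 238 and 258 CPM in deficient 1 to 4, against 191, 264, 277 and 302 CPM in control 1 to 4. Control 1 lay below 3 of the 4 deficient libraries, and deficient 2 was the lowest of all. Its fold change was at the same 86.1% of control, but with a wider error (log2 fold change -0.22, SE 0.17, edgeR adjusted p = 0.471). The 95% interval of the fold reached from 0.653 to 1.14. Without control 1 the log2 fold change was -0.34 and without deficient 2 it was -0.12, and neither fit passed the threshold.

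The sequences upstream of Klf2, Klf4 and Klf6 are shown because the levels of Klf2 and Klf4, and of Klf6 and Klf10, varied together between libraries. They are the 250 bases before the RefSeq transcription start, GRCm38.p6, 5′ to 3′ on the strand of the gene; 6 of the 7 members matched the RefSeq promoter table, and Klf10 did not. Capitals mark matches on either strand to CACCC, the element that gave the family its binding preference, to the GC box GGGCGG, and to the MEF2 site, which serves the factors through which the kinase Mapk7 (ERK5) induces Klf2 and Klf4.
Klf2, chr8:72318812-72319061, plus strand: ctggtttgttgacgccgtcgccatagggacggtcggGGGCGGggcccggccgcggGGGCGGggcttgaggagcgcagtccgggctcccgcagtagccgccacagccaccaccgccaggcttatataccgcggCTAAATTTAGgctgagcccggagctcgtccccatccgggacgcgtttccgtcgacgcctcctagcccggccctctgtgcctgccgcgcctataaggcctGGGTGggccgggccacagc
Klf4, chr4:55532476-55532725, minus strand: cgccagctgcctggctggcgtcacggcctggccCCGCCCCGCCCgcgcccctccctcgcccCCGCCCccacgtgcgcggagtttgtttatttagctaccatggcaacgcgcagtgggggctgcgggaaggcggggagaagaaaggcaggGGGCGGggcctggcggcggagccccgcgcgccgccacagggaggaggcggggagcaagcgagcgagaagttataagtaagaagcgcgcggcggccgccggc
Klf6, chr13:5861239-5861488, plus strand: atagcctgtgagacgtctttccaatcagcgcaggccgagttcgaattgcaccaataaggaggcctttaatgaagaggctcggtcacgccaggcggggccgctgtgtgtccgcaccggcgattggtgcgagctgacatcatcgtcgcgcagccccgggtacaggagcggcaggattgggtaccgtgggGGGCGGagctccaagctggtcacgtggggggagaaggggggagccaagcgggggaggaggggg
The Klf2 window held 1 MEF2 match, CTAAATTTAG, which begins 118 bases before the start, with 1 CACCC and 2 GGGCGG matches. The Klf4 window held 4 GGGCGG matches and 0 of the other 2 motifs, and the Klf6 window held 1 GGGCGG match and 4 CCAAT boxes. In these 3 windows, 0 bases lay in matches to more than 1 of the capitalised motifs. Among all 32851 windows of this length in the table, 2.92% held a MEF2 match, 52.0% a CACCC, 32.7% a GGGCGG and 33.8% a CCAAT. Neither the cyclic AMP element TGACGTCA nor the CArG box was matched in any of the 6 member windows, beside 1.55% and 1.47% of all windows. GC content was 71.2% for Klf2, 74.0% for Klf4 and 64.8% for Klf6, with a median of 52.4% over all windows. A match is a description of these letters and not a binding site.

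Klf6 (ENSMUSG00000000078, chromosome 13, 5861482 to 5870394, plus strand) is an early response factor that favours inflammatory gene expression in mouse macrophages. It had 295, 260.4, 302 and 287 CPM in deficient 1 to 4, against 262, 385, 302 and 309 CPM in control 1 to 4. Control 2 was the highest of all 8 libraries, while control 1 lay near deficient 2, the lowest of all. The log2 fold change was -0.14 (SE 0.11, edgeR adjusted p = 0.449), and it was -0.029 without control 2. Klf7 (ENSMUSG00000025959, chromosome 1, 64029447 to 64122282, minus strand), best known from neurons, had 13.5, 12.4, 11.4 and 11.6 CPM in deficient 1 to 4, against 14.02, 13.7, 11.4 and 12.3 CPM in control 1 to 4. Both groups spanned nearly the same range, and the log2 fold change was -0.075 (SE 0.087, edgeR adjusted p = 0.628). Exons of Klf7 overlap those of Gm13748 and Gm26649 on the opposite strand, which were not in the count table. How reads there were counted, and their part in the low level of Klf7, is not known.

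Klf3 (ENSMUSG00000029178, chromosome 5, 64803388 to 64832901, plus strand) is a repressor that recruits the CtBP corepressors. It had 249, 248, 274 and 246 CPM in deficient 1 to 4, against 227, 294, 224 and 231 CPM in control 1 to 4. Every deficient library lay above control 1, control 3 and control 4, and control 2 lay above every deficient library. The log2 fold change was 0.057 (SE 0.084, edgeR adjusted p = 0.710); it was 0.16 without control 2, with an adjusted p of 0.104, and 0.020 without deficient 3. Exons of Klf3 overlap those of an antisense transcript, Gm20033, which had 345 counts in the 8 libraries together. Whether counting used strand is not stated in these sources, and reads of the 2 transcripts cannot be told apart where they overlap.

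Klf10 and Klf13 belong to the subgroup that represses through the SIN3 complex. Klf10 (ENSMUSG00000037465, chromosome 15, 38291463 to 38300706, minus strand), also called TGF-beta inducible early gene, had 154, 124, 156 and 127 CPM in deficient 1 to 4, against 139, 210, 159 and 167 CPM in control 1 to 4. Control 1 lay below deficient 1 and deficient 3, and the other 3 controls lay above every deficient library. Its log2 fold change of -0.27 (SE 0.14, edgeR adjusted p = 0.267, or 0.130 with DESeq2), a level of 82.9% of control, was the lowest of the 7. It was -0.15 without control 2 and -0.35 without control 1, and the 95% interval of the fold ran from 0.667 to 1.03. Klf13 (ENSMUSG00000052040, chromosome 7, 63886351 to 63938915, minus strand), an activator of Ccl5 in T cells, had the smallest SE of the 7. Its libraries stood at 424, 419, 442 and 450 CPM in deficient 1 to 4, against 390, 449, 426 and 436 CPM in control 1 to 4. The groups overlapped over most of their range, the log2 fold change was 0.029 (SE 0.048, edgeR adjusted p = 0.753), and its interval excluded folds below 0.948 and above 1.10.

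**Figure D3:**
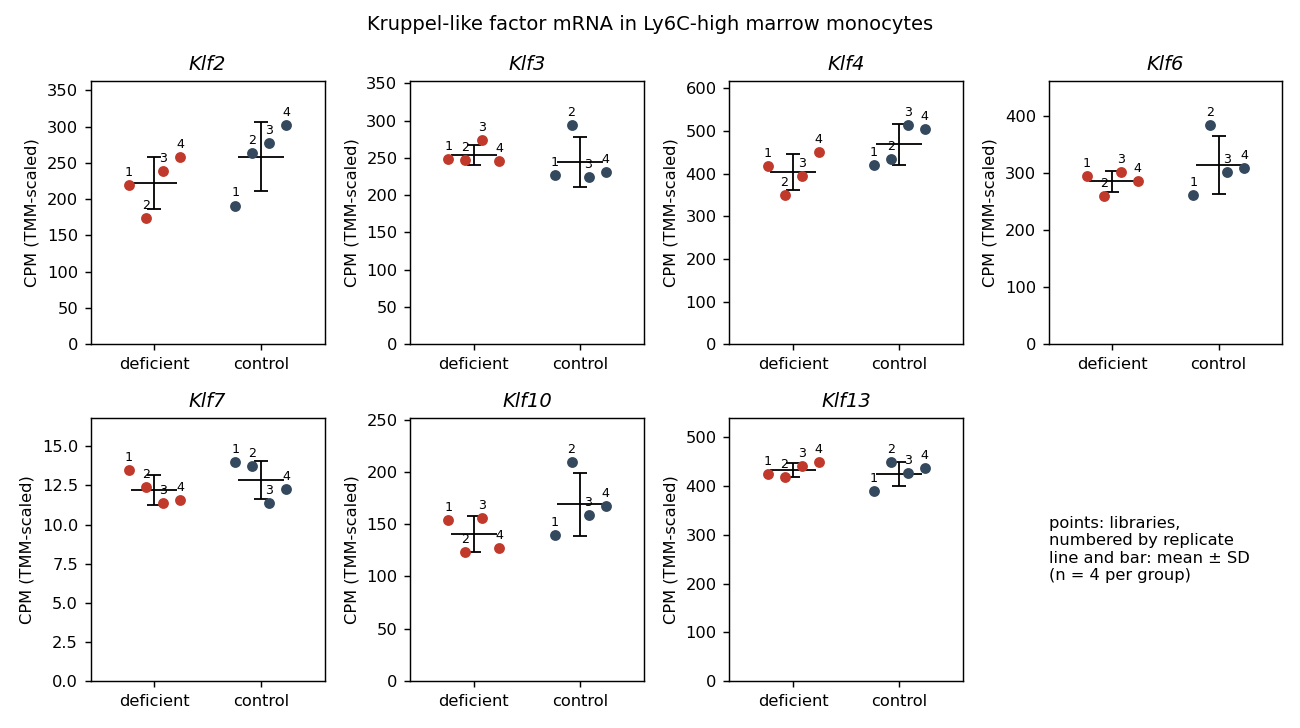
TMM-scaled CPM of the 7 members in each library, with deficient libraries (red) left of controls (dark), numbered by replicate; lines and bars give the mean ± SD over 4 libraries. The groups overlap in every panel, deficient 2 is the lowest library for Klf2, Klf4, Klf6 and Klf10, and control 2 is the highest for Klf3, Klf6 and Klf10.

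Among the 21 pairs of members, Klf6 with Klf10 and Klf2 with Klf4 had the highest correlations over libraries. Klf6 and Klf10 had a Pearson r of 0.93 over the 8 libraries on log2 CPM (exact permutation p = 0.00308, or 0.0646 adjusted over the 21 pairs of members), and a Spearman rho of 0.95 (exact permutation p = 0.00114, or 0.0240 adjusted over the 21 pairs). With deficient 2 and control 2 left out, the libraries farthest from the Klf6 median, r was 0.70 and its exact permutation p was 0.114, so this relation rests in part on those 2 libraries. Klf2 and Klf4 had an r of 0.86 (exact permutation p = 0.00712, adjusted 0.0747) and a rho of 0.86 (exact permutation p = 0.0107, adjusted 0.113), and r was 0.84 without deficient 2 and control 1 (exact permutation p = 0.0417). On deviations from the group means, which removes genotype, r was 0.93 for Klf6 with Klf10 and 0.85 for Klf2 with Klf4. On that scale Klf2 with Klf13 (0.86) and Klf3 with Klf6 (0.85) stood as high as Klf2 with Klf4, and Klf6 with Klf13 (0.83) and Klf3 with Klf10 (0.82) were close. Both genes of a pair are read from the same libraries and share their depth, sort and handling. Klf7 had an r of -0.40 with Klf2 and -0.48 with Klf13, neither of them past an exact permutation p of 0.05 (0.324 and 0.226).

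**Figure D4:**
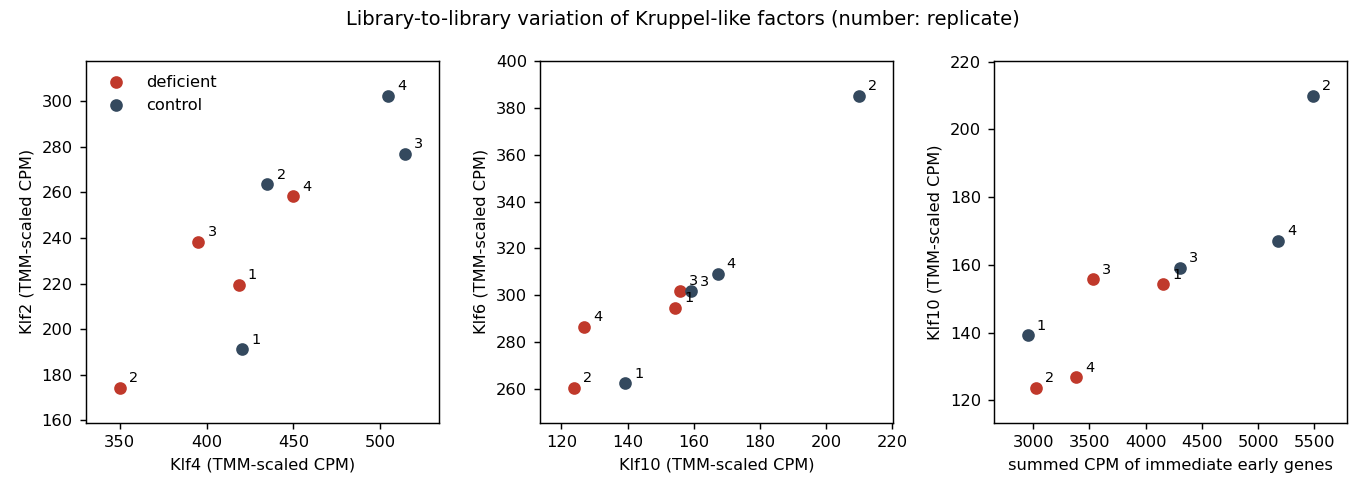
Each point is 1 library (red deficient, dark control, numbered by replicate): Klf2 against Klf4, Klf6 against Klf10, and Klf10 against the summed level of the immediate early genes, all in TMM-scaled CPM. Control 2 stands at the upper right of the last 2 panels, and control 1 lies among the deficient libraries in the first 2 and has the lowest immediate early sum, 2953 CPM, in the third.

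Genes of the immediate early response were set beside these values because several members belong to that response. Of 21 immediate early genes tested, 0 passed the edgeR threshold and 18 had a log2 fold change below 0, beside 49.8% of all tested genes. Their median was -0.36, or -0.14 with a surrogate variable in the fit. These genes are read from the same libraries, so their directions are not independent. With DESeq2, Ier5 (adjusted p = 0.0127), Dusp2 (adjusted p = 0.0156) and Ier2 (adjusted p = 0.0484) fell past the threshold, 3 of 21 beside 6.52% of all tested genes. The 22 genes in the table summed to 4158, 3022, 3530 and 3380 CPM in deficient 1 to 4, against 2953, 5490, 4304 and 5176 CPM in control 1 to 4. By this sum, control 2 was the highest and control 1 the lowest of all libraries, as among the controls for Klf6 and Klf10. The sum is weighted to abundant genes such as Fos. By the mean log2 CPM of the 21 tested genes, taken from the mean of all libraries, control 2 was again the highest, at 0.62. Deficient 2 was then the lowest, at -0.38, with control 1 next at -0.31. The genes nearest to the edgeR threshold were Ier5 (log2 fold change -0.36, adjusted p = 0.106), Ier2 (-0.24, adjusted p = 0.112), the phosphatase gene Dusp2 (-0.74, adjusted p = 0.127) and Myc (0.31, adjusted p = 0.132). Nr4a1 stands in this list, in that of Ly6C-low markers and in that of targets. The part of this response in the Klf values was not tested.

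Markers of Ly6C-low monocytes, the subset in which Klf2 and Nr4a1 are high in mice, had 0 of 12 genes past the edgeR threshold, 9 of 12 below 0 and a median log2 fold change of -0.33. They summed to 2028, 1575, 2069 and 1883 CPM in deficient 1 to 4, against 1949, 2173, 2093 and 2195 CPM in control 1 to 4. Deficient 2, the lowest library for Klf2 and Klf4, was also the lowest here, and the part of these markers in the Klf values was not tested. Among deficient libraries, deficient 2 had the fewest Cre counts, 499. It also had the most Commd10, 24.4 CPM beside 19.6 to 20.8 CPM in the others. Whether this bears on its Klf values was not tested. Markers of other cells had 0 genes past the edgeR threshold as well, and DESeq2 calls for markers are not given here. The groups did not overlap in 2 of 12 Ly6C-low genes, 2 of 10 neutrophil precursor genes and 2 of 10 dendritic cell genes. Across the mature neutrophil, B cell, T and NK cell, erythroid and macrophage lists, 0 tested genes were separate, beside 12.6% of all tested genes. Over all tested genes, 49.8% had a log2 fold change below 0. Genes of 1 list are read from the same libraries, so their directions are not independent. Neutrophil precursor markers summed to 1830 to 3168 CPM in deficient libraries and 1538 to 2074 CPM in controls, with 10 of 10 above 0. Chil3 made up most of that sum, with means of 2203 CPM in deficient libraries and 1547 CPM in controls. The precursor genes differed in size of change. Log2 fold changes were 0.93 for Prtn3, 0.88 for Ms4a3, 0.82 for Mpo and 0.75 for Elane. They were 0.30 for Ltf, 0.15 for Camp, and 0.13 for both Ngp and Cebpe. Mature neutrophil markers summed to 966 to 1047 CPM in deficient libraries and 985 to 1076 CPM in controls. Of these, 5 of 8 tested genes were above 0 and 3 below, with log2 fold changes of -0.43 for Cd177 and 0.44 for Mmp8. B cell markers summed to 413 to 473 CPM in deficient libraries and 454 to 623 CPM in controls, and erythroid markers to 253 to 477 CPM in deficient libraries and 408 to 715 CPM in controls, with 9 of 9 and 7 of 7 tested genes below 0. Dendritic cell markers summed to 157 to 196 CPM in deficient libraries and 188 to 216 CPM in controls. Of these, 8 of 10 were below 0 and 2 above. Their log2 fold changes ran from -1.28 for Cd209a to 0.088 for Xcr1, with a median of -0.21. Macrophage markers summed to 211 to 268 CPM in deficient libraries and 247 to 303 CPM in controls, with 6 of 9 tested genes below 0 and 3 above. T and NK cell markers, of which 4 of 10 were in the table, came to 1.17 to 2.48 CPM in deficient libraries and 1.48 to 2.03 CPM in controls. The part of these cells in the Klf values was not tested.

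Of 19 other Kruppel-like and SP genes, 10 were in the table and 9 passed the filter on low counts; the remaining 9 were not analysed here. With edgeR, 0 of the 9 tested passed the threshold, 3 had an unadjusted p under 0.05 (beside 24.0% of all tested genes), and the median log2 fold change was -0.037. The groups did not overlap in 2 of the 9, beside 12.6% of all tested genes. Sp3, a widely expressed GC box factor, had 279, 236, 262 and 251 CPM in deficient 1 to 4, against 280.0, 297, 290.1 and 298 CPM in control 1 to 4. Every deficient value lay below every control value, by less than 1 CPM between deficient 1 and control 1 (log2 fold change -0.18, SE 0.052, edgeR adjusted p = 0.0852). Sp4, its paralog, did not overlap between groups either, at 19.1 ± 1.14 CPM in deficient libraries and 21.9 ± 0.740 CPM in controls (SD, n = 4 each; log2 fold change -0.20, edgeR adjusted p = 0.103). Klf11, the closest relative of Klf10, had 28.8, 25.3, 33.7 and 21.4 CPM in deficient 1 to 4, against 32.0, 48.9, 31.2 and 39.0 CPM in control 1 to 4. Deficient 3 lay above control 1 and control 3, and control 2 was the highest, as it was for Klf10 (log2 fold change -0.48, SE 0.18, edgeR adjusted p = 0.165). With DESeq2, Klf11 (adjusted p = 0.0359) and Sp3 (adjusted p = 0.0386) passed, 2 of 9 beside 6.52% of all tested genes.

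The other relatives had log2 fold changes near 0 or low counts. Sp1, the founder of the SP group, had 191 ± 6.42 CPM in deficient libraries and 193 ± 5.69 CPM in controls (log2 fold change -0.016), and Sp2 had 84.8 ± 1.22 CPM in deficient libraries and 87.0 ± 3.42 CPM in controls (-0.037; SD, n = 4 each). Klf16 (0.029), Klf8 (0.014) and Klf9 (-0.022) were at means of 8.83 to 17.5 CPM. Klf5, at 0.498 ± 0.116 CPM in deficient libraries and 0.546 ± 0.171 CPM in controls (SD, n = 4 each), rested on 5 to 20 counts a library. Klf1, the erythroid member, had 5 to 12 counts in the deficient libraries and 1 to 13 in the controls, too few to be tested.

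Genes that act on Kruppel-like factors were read from the same fit. Among 9 inducers, 0 passed the edgeR threshold, beside 0.873% of all tested genes, and the median log2 fold change was -0.072. The groups did not overlap in 2 of the 9, beside 12.6% of all tested genes. With DESeq2, 1 of the 9 passed, beside 6.52% of all tested genes. Mef2c, which encodes one of the MEF2 factors, came nearest, with 68.5, 61.3, 69.0 and 56.2 CPM in deficient 1 to 4 against 79.6, 71.1, 80.7 and 81.6 CPM in control 1 to 4. All 4 deficient values lay below all 4 controls (log2 fold change -0.30, SE 0.070, edgeR adjusted p = 0.0585; 0.00789 with DESeq2). Mapk7, the kinase upstream of MEF2, had a log2 fold change of -0.14 (adjusted p = 0.137), Irf8, the lineage factor above Klf4, one of -0.18 (adjusted p = 0.115), and Spi1, which encodes PU.1, one of 0.091 (adjusted p = 0.221). Of 6 ubiquitin ligase genes, 0 passed with edgeR and 1 with DESeq2, and the median was -0.064. The groups did not overlap in 1 of the 6. The shares over all tested genes are those given for the inducers. Btrc, which encodes an F-box protein that targets KLF4, lay just above the threshold at 11.003 ± 0.741 CPM in deficient libraries and 13.8 ± 0.193 CPM in controls, with no overlap (SD, n = 4 each; log2 fold change -0.33, SE 0.072, edgeR adjusted p = 0.0504; 0.0111 with DESeq2). Wwp1 (a ligase that acts on KLF2), Vhl and Fbxw7 had log2 fold changes of -0.15, -0.066 and 0.068.

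Corepressors and coactivators of the family showed small differences. Of 11 cofactors, 0 passed the edgeR threshold, beside 0.873% of all tested genes. Among the 11, 8 had a log2 fold change above 0 (49.8% of all tested genes lay below 0), and the median was 0.062. The groups did not overlap in 1 of the 11, beside 12.6% of all tested genes. The acetyltransferase gene Ep300 had 385 ± 9.85 CPM in deficient libraries and 355 ± 14.8 CPM in controls, with no overlap (SD, n = 4 each; log2 fold change 0.12, edgeR adjusted p = 0.132). Ctbp2, which encodes the partner of KLF3, had a log2 fold change of 0.098, Hdac1 one of 0.096 and Sin3b one of -0.066.

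Among genes reported as targets of the family in other cells, 12 of 14 were in the table. Of these, 0 passed the edgeR threshold, beside 0.873% of all tested genes, and 6 lay on each side of 0. Their median log2 fold change was -0.0052. Zc3h12a, an RNase gene induced by KLF4 in macrophages, had 31.9, 30.8, 31.9 and 31.5 CPM in deficient 1 to 4, against 32.6, 39.3, 34.4 and 39.9 CPM in control 1 to 4. The groups did not overlap, as in 12.6% of all tested genes, with control 1 the closest to the deficient values (log2 fold change -0.22, SE 0.067, edgeR adjusted p = 0.0970). Nr4a1, the nuclear receptor gene that Ly6C-low monocytes need, had 93.6, 45.9, 78.2 and 104 CPM in deficient 1 to 4, against 86.9, 148, 122 and 132 CPM in control 1 to 4. Deficient 2 was the lowest, as for Klf2 and Klf4, and control 1 lay below deficient 1 and deficient 4 (log2 fold change -0.60, SE 0.29, edgeR adjusted p = 0.255). S1pr1, a KLF2 target in T cells, was at 0.346 ± 0.0799 CPM in deficient libraries and 0.496 ± 0.157 CPM in controls (SD, n = 4 each; edgeR adjusted p = 0.322). It rested on 5 to 22 counts a library.

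The genes whose levels followed each member most closely over the 8 libraries were picked from 9408 genes with a mean of at least 5 CPM, as a description. For Klf2 they were Csk, Plekho2 and Fam214b (Pearson r 0.98, 0.97 and 0.96), and for Klf4 Sdr42e1, Mief2 and Arhgap39 (0.99, 0.98 and 0.97). For Klf6 they were Tob1, Pim3 and Tmem185b (0.98, 0.97 and 0.96), and for Klf10 Ccrl2, Naip2 and Ccnl1 (0.96, 0.96 and 0.95). For Klf3 they were Rfxank, Prkci and Tbl2 (0.97, 0.96 and 0.96), for Klf13 Pbxip1, Plxnb2 and Epn1 (0.96, 0.94 and 0.93), and for Klf7 Clcn3, Tmx4 and Sestd1 (0.97, 0.96 and 0.93). Between 8 and 58 genes exceeded an r of 0.9 with a given member, so these names are the top of a longer list, and the libraries behind them share depth and handling. How many of 9408 genes would do so by chance over 8 libraries was not tested. Rank correlation could be lower, with a Spearman rho of 0.62 for Klf6 with Tmem185b.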

How the data were processed

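Polyadenylated RNA was sequenced as single reads, per the labels' protocols. The authors deposited raw counts per gene, which the file headers name as such; the 8 columns of their normalized values were not used. GRCm38, STAR 2.7.3a, HTSeq 0.12.4, cutadapt and DESeq2 appear in the submitters' processing notes, roles not given. No molecular identifiers are mentioned, so the limit at a count of 0 (3 counts) covers counting error only. The Cre row was left out of library sizes and tests. The members, lists and tests were chosen with earlier results of these data known.

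Of the genes, 12938 passed edgeR's filterByExpr at a minimum count of 10 and a minimum total of 15. Their counts were scaled with TMM, and the model held genotype alone (edgeR 4.0.16 in R 4.3.3, quasi-likelihood, robust). All tests are two-sided. The threshold was an adjusted p under 0.05, by the Benjamini-Hochberg method over all tested genes. CPM values are TMM-scaled except those of Cre, which are shares of the library total. Log2 CPM for correlations used a prior count of 2; their permutation tests were two-sided. Exon lengths and gene positions are from GENCODE M21 (12926 of 12938 tested genes matched), and promoters from RefSeq (GRCm38.p6).

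The text names the members, their relatives in the table, up to 4 genes with the smallest p per list, and the 3 closest genes per member. The result of 1 gene that this rule names is not reported here. Alternatives were DESeq2 1.42.0, other size factors and filters, a surrogate variable (sva 3.50.0) and libraries left out. No library was a copy of another (chi-square per degree of freedom 2.58 to 20.2 between libraries of a group). In 5 simulated tables of 12938 genes for deficient against control, each with 200 genes changed, recovery was 41.2% at a 1.25-fold change, 76.2% at 1.5-fold and 82.2% at 2-fold, and false calls made up 7.73% of all calls.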

Additional observations from a re-analysis of the deposited data

Results flagged for a closer look

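Of 76 groups of 4 libraries examined over the members, their relatives and the other named genes, 9 held a library far from the other 3; chance alone flags about 1 group in 20. Klf3 did so in both genotypes, with deficient 3 at 274 CPM against 246 to 249 CPM in the other deficient libraries, and with control 2 at 294 CPM against 224 to 231 CPM in the other controls. Control 2 also stood high for Klf9, at 12.5 CPM beside 8.92 to 9.53 CPM, and for Mapk7, at 97.6 CPM beside 87.4 to 89.1 CPM. Control 3 stood high for Sp1, at 202 CPM beside 190 to 192 CPM, and for Sp4, at 23.0 CPM beside 21.5 to 21.7 CPM. Control 1 stood low for Ep300, at 333 CPM beside 359 to 364 CPM, for Sin3b, at 92.0 CPM beside 96.1 to 96.9 CPM, and for Ier5, at 179 CPM beside 234 to 238 CPM.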

How the results depend on the processing

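Under 15 alternatives, 0 of the 7 members passed the threshold in any fit, with adjusted p-values of 0.103 to 0.987, and the sign changed in 3 of 105 values. Klf2 had a log2 fold change of 0.030 with a surrogate variable, Klf3 one of -0.020 without the shallowest library of each group, and Klf13 one of -0.012 without control 1 (0.052 without control 2, the other end of its range). Klf4 (-0.27 to -0.070), Klf6 (-0.22 to -0.029), Klf7 (-0.13 to -0.031) and Klf10 (-0.35 to -0.14) kept their sign throughout. The 113 genes past the threshold over the whole table became 843 with DESeq2, 1 without the shallowest library of each group, 3 with a surrogate variable, and 1 to 522 when 1 library was left out (522, 29, 479 and 2 without deficient 1 to 4, and 1, 298, 3 and 8 without control 1 to 4). Median log2 fold changes ranged, with 1 library left out, from -0.14 to -0.031 for the relatives, from -0.11 to 0.0077 for the inducers, from -0.10 to -0.037 for the ubiquitin ligases, from 0.018 to 0.069 for the cofactors, from -0.059 to 0.024 for the targets and from -0.53 to -0.28 for the immediate early genes. Without the shallowest libraries the relatives had a median of -0.18, and with a surrogate variable the ubiquitin ligases had 0.025, the cofactors 0.010 and the immediate early genes -0.14. Of genes outside the members, Sp3 passed without deficient 1 (adjusted p = 0.0384), Mef2c without deficient 1, deficient 3 or control 2, and Btrc without deficient 1 or deficient 3, with upper quartile factors and with a filter at 5 CPM. With a surrogate variable the edgeR adjusted p was 0.706 for Sp3, 0.587 for Mef2c and 0.443 for Btrc. With 1 library left out it reached 0.234 for Sp3, 0.197 for Mef2c and 0.186 for Btrc. The causes of these shifts were not tested. No paired analysis was possible because the groups share no replicate numbers in the labels. Klf1, S1pr1 and Klf5, with low counts, are limited by depth.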

Other observations

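Taken per length of exon, Klf4 and Klf2 together made up more than any other pair of the members' summed level, with 30.5% and 27.8% in deficient libraries and 31.7% and 28.8% in controls. Klf13 held 13.3% in deficient libraries and 11.6% in controls, and Klf7 0.347% in deficient libraries and 0.325% in controls. Among the upstream windows not shown, that of Klf3 held the most CACCC matches, 5, with 6 GGGCGG matches, and 1 base lay in matches of both. That of Klf7 held 3 CACCC matches and 1 GGGCGG match, and that of Klf13 held 1 CACCC match, 3 GGGCGG matches and 2 CCAAT boxes.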
